A study of Homo sapiens with 14 samples.

Results

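T-ALL, the acute lymphoblastic leukemia of the T lineage, is a cancer of developing thymocytes. Its subtypes are often named after the transcription factor that the leukemic clone switches on at the wrong time or place. TLX1 and TLX3 are homeobox factors, and leukemias that express them are generally arrested around the cortical thymocyte stage. TAL1 is a basic helix-loop-helix factor that normally works in blood progenitors and binds DNA together with E proteins, LMO and GATA factors. The comparison here sets 2 TLX-type lines, HPB-ALL and ALL-SIL, against 3 lines that express TAL1, CCRF-CEM, Jurkat and Molt-4. They contributed 10 of the 14 arrays of the series, 4 TLX-type and 6 TAL1-type. P12-ICHIKAWA and TALL-1, the remaining 2 of 7 lines, entered none of the main tests and are given for orientation. They entered only an alternative setting given near the end, and the choice of probe sets.

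Each line was grown in culture and exposed for 6 h to AS605240, an inhibitor of phosphatidylinositol 3-kinase (PI3K), at that line's own IC50, or to vehicle. Doses therefore differed between lines. RNA was measured on whole-transcriptome 3′ arrays, 1 array per line and treatment, so that each line stands for a single leukemia and the replicate is the line. The cells are established leukemia lines, and the labels name no added allele or transgene. Values are array signals in arbitrary units, and differences are on the log2(signal + 16) scale, which understates changes of dim genes. A gene was called where limma's Benjamini-Hochberg adjusted p was under 0.05 over the 19775 genes tested and the difference exceeded 1.5-fold. Arrays are described as apart where every array of one set lay above every array of the other.

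The label genes separated the lines. TLX3 read 1791 with vehicle and 1958 with AS605240 in HPB-ALL, and between 6.78 and 11.8 in ALL-SIL and the TAL1-type lines. TLX1 read 617 and 638 in ALL-SIL, 15.6 and 23.4 in Molt-4, and at most 2.82 elsewhere among the 5 lines. The TLX-type set thus joined lines that each express a different TLX gene, and neither gene alone could pass a test between the sets. TAL1 read 224 and 256 in CCRF-CEM, 1012 and 1098 in Jurkat, and 626 and 551 in Molt-4, against at most 3.49 in the TLX-type lines. Its arrays were apart, with a difference of -4.96 (SE 0.64) that was not called (adjusted p = 0.128). The TAL1-type lines spread from 224 to 1098 among themselves. These genes define the sets and are given as a check of the labels.

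**Figure D1:**
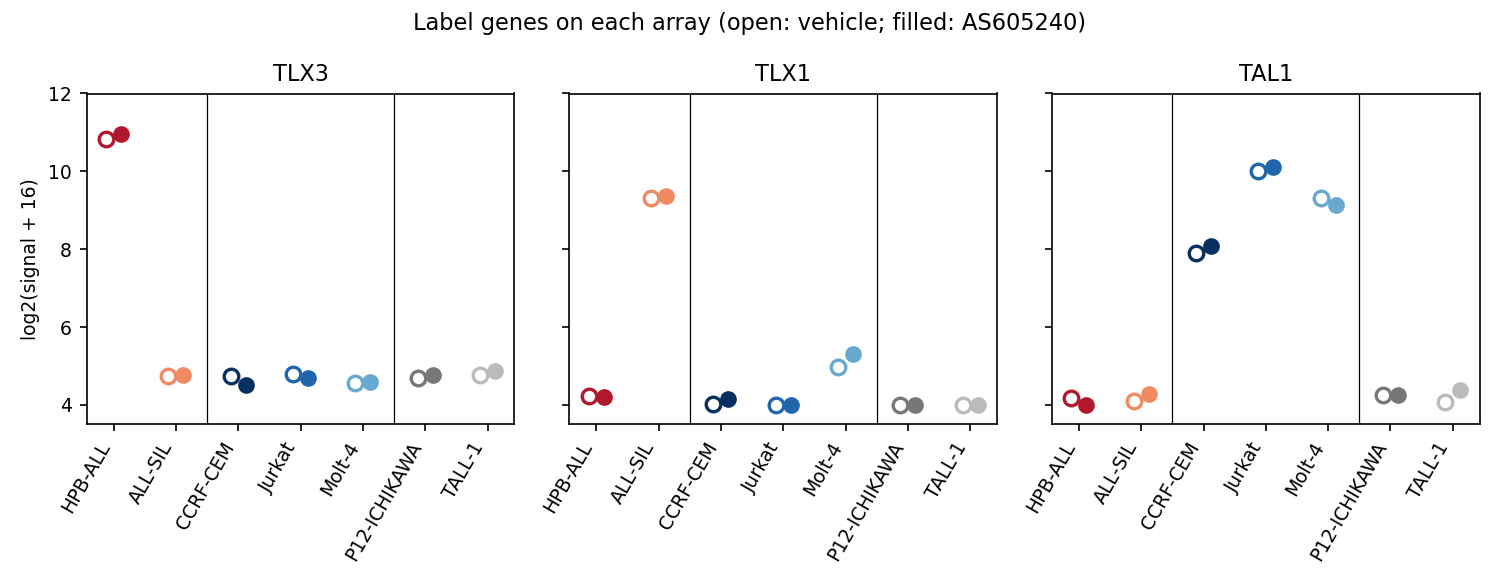
Signal of TLX3, TLX1 and TAL1 as log2(signal + 16) on each array, with 1 open point (vehicle) and 1 filled point (AS605240) per line. Vertical lines part the TLX-type lines, the TAL1-type lines and the 2 lines left out. TLX3 is high in HPB-ALL, TLX1 in ALL-SIL, and TAL1 in CCRF-CEM, Jurkat and Molt-4, while the lines left out are low for all 3 genes.

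The TAL1-type lines differed in further oncogenic transcription factors. NKX2-5, a cardiac homeobox gene activated in some T-ALL, read 135200 and 120800 in CCRF-CEM and at most 50.5 in the other lines. MEF2C, a MADS-box factor of immature T-ALL, read 391 and 330, and HHEX, a homeobox factor of progenitors, 480 and 497 in CCRF-CEM. Neither exceeded 22.4 in any other line. The LIM-domain partner LMO2 read 258 with vehicle in CCRF-CEM, 84.7 and 75.4 in Molt-4, and at most 2.38 in Jurkat. Of 17 oncogenic T-ALL factors measured, 0 were called between the sets, beside 0.0303% of all genes called higher and 0.131% lower. Arrays were apart and lower in 3 (17.6%, beside 5.29% of all genes), TAL1 itself, NKX2-5 and TLX2. They were apart and higher in 0, beside 3.16% of all genes. P12-ICHIKAWA and TALL-1, which carried neither TLX nor TAL1 signal, correlated with each other at r = 0.996 across genes and had 0 genes more than 4-fold apart, against 263 to 768 genes for any pair of the 5 compared lines. They are read here as close to 1 line.

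Across genes, levels in HPB-ALL and ALL-SIL correlated at r = 0.911, no closer than the pairs that join a TLX-type and a TAL1-type line (r = 0.907 to 0.912), while the TAL1-type lines correlated with one another at 0.934 to 0.953. HPB-ALL and ALL-SIL differed more than 4-fold in 713 genes, and the pairs of TAL1-type lines in 263 to 431. The median signal was 19.5 to 21.7 on TLX-type and 21.7 to 24.6 on TAL1-type arrays. The 3′ minus 5′ difference of the GAPDH control probe sets was 0.000684 to 0.162 on the former and -0.0645 to 0.12 on the latter. Summed signals of marker lists of other cell types overlapped between the sets for B cell genes (149 to 371 against 121 to 460), myeloid genes (261 to 288 against 232 to 332) and erythroid genes (272 to 290 against 258 to 289). Natural killer and cytotoxic markers summed to 180 to 2800 in TLX-type and 171 to 651 in TAL1-type lines. The high end was ALL-SIL, with NKG7 at 2452 and 2111 and GZMB at 251 and 170, while NCAM1, KLRD1, GNLY and KLRF1 stayed under 50. Of the T-cell markers, CD3D, a subunit of the T-cell receptor complex, read 2704 to 5569 and CD3E 950 to 1673 over the 5 lines. The adhesion receptor CD2 did not hold in every line: it read 1116 and 921 in HPB-ALL and 627 and 670 in Jurkat, but 36.8 and 28.7 in ALL-SIL, 8.54 and 1.68 in CCRF-CEM and 6.67 and 6.91 in Molt-4.

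The baseline comparison took the mean of each line's arrays, 2 lines against 3, and asked which genes differ between TLX-type and TAL1-type T-ALL regardless of the inhibitor. It called 6 genes higher in the TLX-type lines (0.0303% of genes tested) and 26 lower (0.131%). All 32 had their arrays apart. Arrays were apart by more than 1.5-fold in many more genes, 624 higher (3.16%) and 1047 lower (5.29%), and 2755 genes (13.9%) had an unadjusted p under 0.05. With 2 lines against 3 an exact permutation test of one gene cannot go below p = 0.1, so the calls rest on the spread that limma shares across genes. They also rested on every TAL1-type line being present: without Jurkat or without Molt-4, 0 genes were called either way, and without CCRF-CEM 2 were called higher and 1 lower.

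The called genes higher in TLX-type lines were led by CSMD1, which encodes a large membrane protein with complement-control domains. CSMD1 read 7005 and 9195 in HPB-ALL (vehicle, then AS605240) and 2373 and 3510 in ALL-SIL, against 18.0 to 31.9 on the 6 TAL1-type arrays. The difference was 6.93 (SE 0.46, limma adjusted p = 0.0438), and it was 2.99 and not called where all probe sets of the gene were averaged. The long noncoding RNA LINC00674 read 566 and 707 in HPB-ALL and 299 and 376 in ALL-SIL, and at most 4.22 on TAL1-type arrays (4.75, SE 0.30). Both genes were bright on every TLX-type array and dim on every TAL1-type array.

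WWC3, a WW-domain protein of the Hippo pathway, read 562 and 676 in HPB-ALL and 367 and 498 in ALL-SIL, against 13.9 to 30.5 (3.86, SE 0.24). The LIM-domain adaptor TRIP6 read 180 and 170 in HPB-ALL and 301 and 245 in ALL-SIL, against 5.69 to 10.4 (3.25, SE 0.20). TRIP6 is the one called higher gene for which the lines left out resembled the TLX-type set, at 262 to 303; WWC3 lay between the sets there, at 110 to 130. CTSS, the lysosomal protease cathepsin S, read 81.9 and 117 in HPB-ALL and 110 and 122 in ALL-SIL, against 6.47 to 11.6 (2.37, SE 0.12, adjusted p = 0.0273). ZNF404, a zinc finger gene, was dimmer, at 34.6 to 43.3 against at most 1.92 (1.74, SE 0.10).

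The lower genes were mostly ones with little or no signal in TLX-type lines: 20 of the 26 were under 16 on all 4 TLX-type arrays. The widest gap was PSAT1, phosphoserine aminotransferase, an enzyme of serine synthesis. PSAT1 read 4.49 and 2.80 in HPB-ALL and 0.305 and 4.21 in ALL-SIL. It read 4591 and 1924 in CCRF-CEM, 2493 and 2197 in Jurkat, and 1312 and 977 in Molt-4. The difference was -6.73 (SE 0.45, adjusted p = 0.0438), and the lines left out, at 1010 to 1671, resembled the TAL1-type set. PYCR1, which makes proline, followed the same pattern at 2.35 to 15.5 against 146 to 277 (-3.24, SE 0.23, adjusted p = 0.0498).

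Genes with the smallest adjusted p varied little among the TAL1-type lines. PTPRK, a receptor-type tyrosine phosphatase, read 2.69 and 0.669 in HPB-ALL and 7.48 and 1.90 in ALL-SIL, against 334 and 320 in CCRF-CEM, 321 and 409 in Jurkat and 369 and 347 in Molt-4 (-4.26, SE 0.12, adjusted p = 0.013). MYADM, a membrane protein, was at most 6.21 in TLX-type lines and 291 to 449 in the others (-4.28, SE 0.13). BEX5, a small X-linked gene of the brain-expressed family, was at most 3.40 against 192 to 258 (-3.79, SE 0.11). For PTPRK and MYADM the lines left out (232 to 307 and 196 to 279) resembled the TAL1-type set, whereas BEX5 was at most 1.11 there, as in TLX-type lines.

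BNIP3, a BH3-like mitochondrial protein of mitophagy, was at most 2.81 in TLX-type lines and 250 to 601 in TAL1-type lines (-4.43, SE 0.25). ACAA2, a thiolase of mitochondrial fatty acid oxidation, was at most 2.82 against 180 to 368 (-4.04, SE 0.29). The imprinted growth regulator NDN was at most 5.86 against 401 to 642 (-4.87, SE 0.20). In these genes too, the 4 arrays left out lay with the TAL1-type lines (BNIP3 676 to 1442, ACAA2 519 to 544, NDN 324 to 347).

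HOXB7, a homeobox gene, was at most 3.28 against 143 to 247 (-3.65, SE 0.15), and the Polycomb-group gene SCML2 at most 8.90 against 166 to 316 (-3.50, SE 0.22). VASH2, a tubulin carboxypeptidase of the vasohibin family, was at most 3.52 against 308 to 502 (-4.49, SE 0.21). KLHDC8B, a kelch-repeat protein, differed in having a measurable level in both sets, 49.2 to 59.4 against 551 to 1189 (-3.46, SE 0.17). GFOD3P was at most 3.12 against 134 to 244 (-3.42, SE 0.13). Among the other 13, NPM3, a nucleolar chaperone, read 64.4 to 105 against 505 to 774 (-2.67), and the chromatin remodeling subunit MTA2 read 9.75 to 19.3 against 110 to 158 (-2.20).

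**Figure D2:**
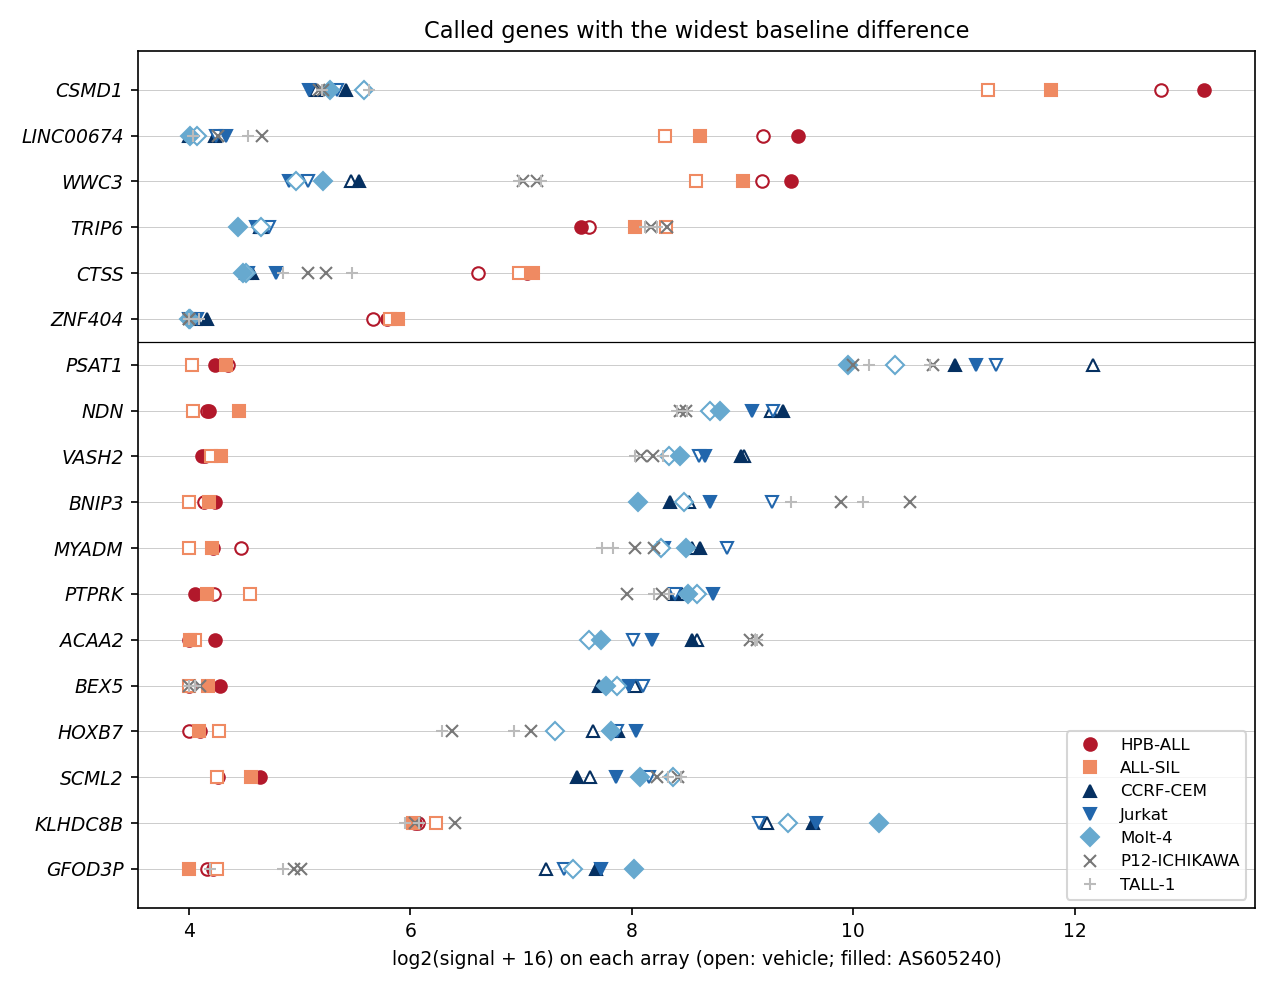
log2(signal + 16) on every array for the 6 called genes that were higher (top) and the 12 most negative called genes (bottom) in TLX-type lines. Circles and squares are TLX-type lines, triangles and diamonds TAL1-type lines, crosses and pluses the lines left out. In each gene the TLX-type arrays lie clear of the TAL1-type arrays, and the lines left out side with the TAL1-type lines for PSAT1, NDN and PTPRK but with the TLX-type lines for TRIP6, BEX5, KLHDC8B and GFOD3P.

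The lines left out carry neither a TLX nor a TAL1 signal, and among the called genes they sided more often with the TAL1-type set. Of the 26 lower genes, 17 had all 4 arrays of those lines above all TLX-type arrays, and in 16 their mean was nearer to the TAL1-type mean. Of the 6 higher genes, 5 were below all TLX-type arrays in those lines. Over all genes, levels in those lines correlated at r = 0.928 with ALL-SIL and 0.912 to 0.914 with HPB-ALL. With the TAL1-type lines the correlation was 0.928 to 0.933. Of the 18 called genes plotted above, 6 had a single probe set, and 12 further probe sets with a signal over 50 in 9 genes all had the same sign as the one used (absolute differences 1.88 to 5.61).

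RefSeq promoter windows, 250 bases before to 50 bases after the gene start, were found for 22 of the 26 lower and 4 of the 6 higher genes, and for 15384 of all genes. The windows of the lower genes held a median of 30.5 CpG dinucleotides and 68.7% G and C, against 22 and 63.0% over all genes, and 18 of the 22 were above the all-gene median. Genes with a signal over 50 on every TAL1-type array, whose 6817 windows are the nearer comparison, had a median of 27 CpG and 65.3%. The 4 higher genes had a median of 24 and 66.8%. The windows of PSAT1, with the widest difference, and of the 3 genes with the smallest adjusted p are printed to show this range, 5′ to 3′ on the gene's strand with each CpG in capitals (RefSeq, GRCh38.p14). PSAT1 lies at chr9:78296875-78297174 (plus strand, 37 CpG), MYADM at chr19:53866121-53866420 (plus, 31 CpG), PTPRK at chr6:128520550-128520849 (minus, 44 CpG) and BEX5 at chrX:102155928-102156227 (minus, 14 CpG).
PSAT1: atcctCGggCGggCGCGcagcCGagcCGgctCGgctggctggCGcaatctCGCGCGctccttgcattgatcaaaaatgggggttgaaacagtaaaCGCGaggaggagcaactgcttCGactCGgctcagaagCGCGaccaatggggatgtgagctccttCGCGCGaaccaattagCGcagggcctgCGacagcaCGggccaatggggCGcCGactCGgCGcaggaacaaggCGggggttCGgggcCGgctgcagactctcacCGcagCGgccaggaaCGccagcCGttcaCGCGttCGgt
MYADM: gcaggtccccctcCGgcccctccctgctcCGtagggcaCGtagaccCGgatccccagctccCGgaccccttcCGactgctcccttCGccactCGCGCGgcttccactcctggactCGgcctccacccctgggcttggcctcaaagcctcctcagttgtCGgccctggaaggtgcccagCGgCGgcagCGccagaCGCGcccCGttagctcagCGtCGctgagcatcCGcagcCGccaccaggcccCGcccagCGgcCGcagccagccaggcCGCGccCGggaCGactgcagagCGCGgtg
PTPRK: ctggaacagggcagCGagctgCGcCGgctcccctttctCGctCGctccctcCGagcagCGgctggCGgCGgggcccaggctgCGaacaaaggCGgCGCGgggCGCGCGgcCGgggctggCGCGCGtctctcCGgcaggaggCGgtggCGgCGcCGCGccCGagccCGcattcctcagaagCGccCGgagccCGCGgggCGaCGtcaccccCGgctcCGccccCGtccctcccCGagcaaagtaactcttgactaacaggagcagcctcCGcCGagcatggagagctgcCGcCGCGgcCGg
BEX5: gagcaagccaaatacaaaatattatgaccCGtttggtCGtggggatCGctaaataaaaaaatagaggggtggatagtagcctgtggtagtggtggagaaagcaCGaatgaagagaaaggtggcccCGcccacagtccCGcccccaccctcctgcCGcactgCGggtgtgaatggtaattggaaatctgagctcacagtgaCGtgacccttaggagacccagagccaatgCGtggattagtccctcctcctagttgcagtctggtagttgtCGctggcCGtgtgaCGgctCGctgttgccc

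Of the windows printed, PTPRK holds the most CpG and BEX5 the fewest. Both strands of these windows were searched for 3 motifs. The E-box CAGATG, of the kind TAL1 and E proteins can bind, was in 1 of 22 windows of lower genes (LOXL1-AS1, 4.55%), in 1 of 4 of higher genes (LINC00674, 25%) and in 11.9% of all windows. The homeodomain core TAATTA was in 0 of either group and in 3.05% of all windows. The ATF4 response element core TGATGNAA was in 0 of either group and in 2.62% of all. Genes with a signal over 50 on every TAL1-type array, the nearer comparison, held the E-box in 8.38% of windows. TAATTA was in 1.7% of their windows and TGATGNAA in 1.75%.

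T-cell identity genes, which mark the lineage from early thymocytes on, had no called member, but where arrays were apart the TLX-type lines were the higher. Over all genes, 0.0303% were called higher and 0.131% lower. Of 13 measured, 4 had arrays apart and higher (30.8%, beside 3.16% of all genes) and 0 lower, with a median difference of 0.32 beside -0.04 over all genes. The genes named in this and the next paragraphs were picked after their values were seen, and PSAT1 and PYCR1 were the only called members of any list.

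CD7, an early T-cell surface protein, read 1222 and 949 in HPB-ALL and 2225 and 1982 in ALL-SIL, against 257 and 244 in CCRF-CEM, 465 and 392 in Jurkat and 265 and 263 in Molt-4 (2.24, SE 0.39, adjusted p = 0.17). RUNX3, a Runt-domain factor of CD8 lineage cells, read 1719 and 1751 in HPB-ALL and 1162 and 1078 in ALL-SIL, against 29.0 to 203 (3.63, SE 0.64, adjusted p = 0.171). GATA3, a zinc finger factor required for T-cell development, was 1604 to 2959 against 570 to 1175 (1.49, SE 0.41), and the co-receptor CD5 was 328 to 400 against 132 to 173 (1.18, SE 0.14). All TLX-type arrays stood above all TAL1-type arrays for these genes, yet the differences missed the call.

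Cortical thymocyte genes split. Of 19, 1 had arrays apart and higher (5.26%, beside 3.16% of all genes) and 4 lower (21.1%, beside 5.29%). The higher one was CD8A, at 538 to 1428 against 8.08 to 335 (3.51, SE 1.21). RAG1, which cuts DNA for receptor rearrangement, read 30.4 and 48.1 in HPB-ALL and 0.00789 and 7.19 in ALL-SIL, against 359 and 716 in CCRF-CEM, 52.2 and 119 in Jurkat and 2619 and 2910 in Molt-4 (-4, SE 1.56, adjusted p = 0.375). Its partner RAG2 was 3.41 to 34.3 against 57.1 to 400 (-2.33, SE 0.81), and ARPP21, a thymocyte-enriched phosphoprotein, was at most 68.0 against 231 to 588 (-3.72, SE 0.69). CD1A, a cortical surface marker, did not follow the sets: HPB-ALL read 2186 and 2782, ALL-SIL 46.4 and 36.2, CCRF-CEM 14.6 and 5.74, Jurkat 859 and 899, and Molt-4 1349 and 1855. ALL-SIL and CCRF-CEM were both low for it.

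Among 18 immature thymocyte and progenitor genes, 0 were higher with arrays apart (beside 3.16% of all genes) and 2 lower (11.1%, beside 5.29%). BCL11A, a zinc finger repressor of lymphoid progenitors, was 1.52 to 9.36 in TLX-type lines and 641 and 554 in CCRF-CEM, 422 and 374 in Jurkat, and 201 and 223 in Molt-4 (-4.17, SE 0.46, adjusted p = 0.105). Of 16 mature T-cell genes, CD52 and CD6 were higher (12.5%, beside 3.16% of all genes) and CD69 lower (6.25%, beside 5.29%). CD52, a glycoprotein of mature lymphocytes, read 568 and 508 in HPB-ALL and 2156 and 1971 in ALL-SIL, against 30.3 to 125 (3.66, SE 0.71).

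Of 7 TAL1-activated targets from the literature, 1 (14.3%, beside 5.29% of all genes) was lower with arrays apart, ALDH1A2, which makes retinoic acid. ALDH1A2 read 10.5 and 30.5 in HPB-ALL and 3.21 and 0.00316 in ALL-SIL. It read 1592 and 2238 in CCRF-CEM, 1485 and 2498 in Jurkat, and 854 and 1202 in Molt-4 (-5.98, SE 0.45), just past the threshold at an adjusted p of 0.0541. It was also 951 to 2478 in the lines left out, where TAL1 was at most 4.99. GATA3, on the same list, was the member that was higher (14.3% of the list, beside 3.16% of all genes).

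**Figure D3:**
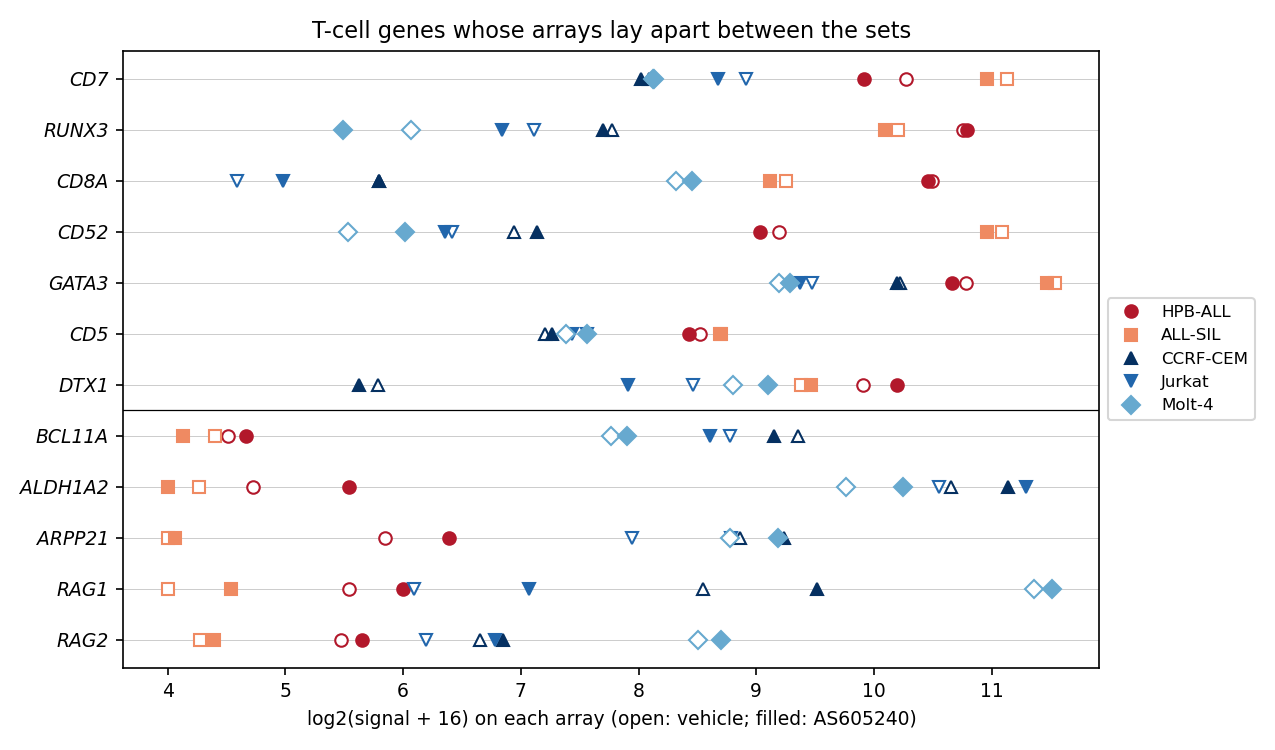
log2(signal + 16) on each array for T-cell genes whose TLX-type arrays all lay above (top) or all below (bottom) the TAL1-type arrays, with open points for vehicle and filled points for AS605240. None of them was called. RUNX3 and CD52 show a wide gap upward and BCL11A and ALDH1A2 downward, while for RAG1 HPB-ALL and Jurkat lie close together.

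No signalling gene on the lists for the T-cell receptor, Notch or PI3K was called at baseline, beside 0.0303% higher and 0.131% lower over all genes. Of 27 T-cell receptor signalling genes, 4 were higher with arrays apart (14.8%, beside 3.16% of all genes) and 1 lower (3.7%, beside 5.29%). RASGRP1, an activator of Ras, was 728 to 1255 against 107 to 610 (1.99), and PTPN6, an inhibitory phosphatase, was 604 to 988 against 170 to 397 (1.3). Of 20 Notch receptors and targets, 3 (15%) were higher (NOTCH1 0.76, NOTCH2 1.36, DTX1 2.12) and 1 (5%) lower (HES4 -3.04), where HES4 was high in HPB-ALL (339 and 424) and low in ALL-SIL (3.41 and 1.39). Of 19 PI3K subunits and opposing phosphatases, 3 (15.8%) were higher with arrays apart and 2 (10.5%) lower. The Notch and PI3K counts stand beside the same all-gene shares, 3.16% higher and 5.29% lower. INPP5D, the phosphatase SHIP1, was 324 to 842 against 72.0 to 275 (1.44), and AKT2 was 136 to 212 against 340 to 484 (-1.14, SE 0.15, adjusted p = 0.128). PIK3CG, the catalytic subunit gamma, read 245 to 453 against 173 to 495 and overlapped.

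Among 15 genes of the BCL2 family, which decides cell survival, 3 were higher with arrays apart and 0 lower (20% beside 3.16% of all genes), with a median of -0.02. BCL2 itself read 195 and 195 in HPB-ALL and 520 and 717 in ALL-SIL, against 124 to 173 (1.18, SE 0.49). The pro-apoptotic members BMF (65.3 to 222 against 7.17 to 47.9, 1.91) and PMAIP1 (1433 to 3084 against 436 to 827, 1.71) were higher too. Of 24 FOXO targets, 4 were higher with arrays apart (16.7%, beside 3.16% of all genes) and 0 lower. They were led by IRS2, an adaptor of insulin signalling, at 274 to 887 against 2.42 to 53.4 (3.81, SE 0.47, adjusted p = 0.122). ALDOC, a glycolytic aldolase, was 5.25 to 12.1 against 149 to 308 (-3.22, SE 0.24, adjusted p = 0.0514). Adhesion receptors (20 genes) and cholesterol synthesis genes (19 genes) had 0 members apart, beside 3.16% higher and 5.29% lower over all genes. At those shares, lists this short would hold few such members.

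Of the amino acid genes, 2 were called, PSAT1 and PYCR1, both lower. The list held 27 genes of asparagine and serine synthesis and ATF4 targets, a group that cells raise when amino acids run short. Of these, 3 were higher with arrays apart (11.1%, beside 3.16% of all genes) and 4 lower (14.8%, beside 5.29%). The median difference was 0.13. PSAT1, PYCR1, ASNS and VLDLR were the 4 lower ones. PSPH, the enzyme that follows PSAT1 in the serine pathway, had arrays apart the other way and was not called, at 780 to 1025 against 168 to 564 (1.53, SE 0.42, adjusted p = 0.268). ASNS, asparagine synthetase, read 103 and 116 in HPB-ALL and 82.8 and 69.2 in ALL-SIL, against 1152 and 380 in CCRF-CEM, 183 and 226 in Jurkat and 153 and 150 in Molt-4 (-1.45, SE 0.68, adjusted p = 0.434). The ASNS promoter window (RefSeq, GRCh38.p14, chr7:97872359-97872658, minus strand) holds the ATF4 core that the PSAT1 window lacks, here in capitals.
ASNS: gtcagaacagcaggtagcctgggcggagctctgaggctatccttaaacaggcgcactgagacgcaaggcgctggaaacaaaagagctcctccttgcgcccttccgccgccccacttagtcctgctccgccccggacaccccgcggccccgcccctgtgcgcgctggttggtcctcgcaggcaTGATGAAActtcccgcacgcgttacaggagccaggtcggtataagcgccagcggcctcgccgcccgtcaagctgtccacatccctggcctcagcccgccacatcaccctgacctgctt

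The second question was whether AS605240 changes other genes in TLX-type than in TAL1-type lines. Each line's change is AS605240 minus vehicle, from 1 array each. In TLX-type lines 164 genes were called higher (0.829%) and 97 lower (0.491%), and in TAL1-type lines 243 higher (1.23%) and 103 lower (0.521%). Of the genes called in each set, 105 were called in both, 40.2% of the former and 30.3% of the latter, and all 105 moved the same way. Mean changes of the sets correlated at r = 0.535 across genes, which are not independent. Across lines, the changes of HPB-ALL and ALL-SIL correlated at 0.364, within the range of the pairs that cross the sets (0.281 to 0.436). The TLX-type counts depended on the setting. They stayed near these with dim genes left out (173 and 115), with median centring (157 and 107), without Molt-4 (154 and 91) and without CCRF-CEM (147 and 85). They were 0 and 1 with an added constant of 4, 0 and 0 with 64, 28 and 31 with probe sets averaged, 4 and 3 with a trended, robust variance, 13 and 14 without HPB-ALL, 41 and 17 without ALL-SIL, and 78 and 56 without Jurkat. With quantile normalization the balance turned to 71 higher and 132 lower. The TAL1-type counts were 199 and 114 with quantile normalization, 0 and 0 with a constant of 4, 63 and 33 with 64, 122 and 56 with probe sets averaged, 330 and 158 without CCRF-CEM, 121 and 43 without Jurkat, and 110 and 56 without Molt-4.

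Of 50 ribosome biogenesis genes, which act in making and processing ribosomal RNA, 14 were called lower in TLX-type and 13 in TAL1-type lines. Over all genes, 0.491% and 0.521% were called lower. In the list 0 were called higher in either set, with medians of -0.45 and -0.43, beside 0.02 and 0.01 over all genes. RPF2, a 5S ribonucleoprotein assembly factor, changed by -0.99 in HPB-ALL, -0.89 in ALL-SIL, -1.02 in CCRF-CEM, -0.83 in Jurkat and -1.33 in Molt-4. RRS1, its binding partner, changed by -0.98 and -1.50 in the TLX-type lines and by -0.29, -0.84 and -0.90 in CCRF-CEM, Jurkat and Molt-4. CCDC86, a nucleolar protein, fell by 1.29 on average in TLX-type and by 1.12 in TAL1-type lines.

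Of 24 FOXO targets, 2 were called higher in TLX-type and 6 in TAL1-type lines (medians 0.31 and 0.32), beside 0.829% and 1.23% of all genes. CCNG2, an atypical cyclin of quiescent cells, was called in both sets, with changes of 0.99 in HPB-ALL, 1.20 in ALL-SIL, 0.72 in CCRF-CEM, 1.49 in Jurkat and 1.37 in Molt-4. YPEL5, a yippee-like protein, rose by 1.08 and 1.01 in the TLX-type lines and by 0.74, 1.31 and 1.39 in CCRF-CEM, Jurkat and Molt-4. ABTB1, an ankyrin and BTB domain protein, rose on average by 1.33 and 1.58 in the sets, and PIK3CD, the catalytic subunit delta of PI3K, by 0.64 and 0.79.

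Cholesterol synthesis genes had 2 of 19 called lower in TLX-type and 7 in TAL1-type lines, with medians of -0.37 and -0.37. Over all genes, 0.491% and 0.521% were called lower. Within the TAL1-type set the median was lowest in Jurkat (-0.99), where HMGCS1, an early enzyme of the pathway, changed by -2.43 beside -0.42 in CCRF-CEM and -0.61 in Molt-4. HMGCS1 changed by -1.03 in HPB-ALL and -0.996 in ALL-SIL. Endoplasmic reticulum chaperones and stress genes had 3 of 20 called lower in TLX-type and 4 in TAL1-type lines, beside the same all-gene shares. XBP1, the transcription factor of that stress response, changed by -0.24 and 0.13 in TLX-type lines and by -0.62, -1.17 and -0.98 in CCRF-CEM, Jurkat and Molt-4, with HPB-ALL near 0 on both arrays (2.90 and 0.00251). The difference of these changes was not called.

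**Figure D4:**
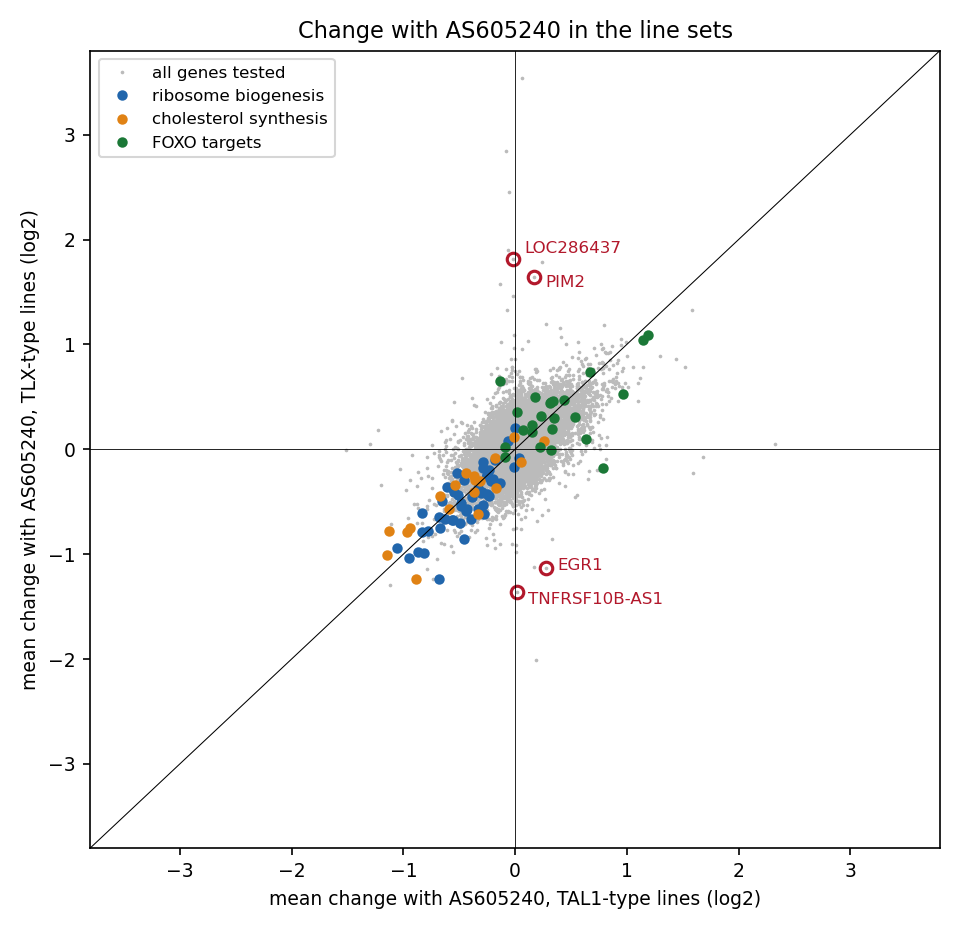
Mean log2 change with AS605240 in the 2 TLX-type lines (vertical axis) against the 3 TAL1-type lines (horizontal axis) for each gene tested, with ribosome biogenesis, cholesterol synthesis and FOXO target genes in color and the diagonal drawn. Most colored genes lie near the diagonal, ribosome biogenesis at a median of -0.45 and -0.43. LOC286437, PIM2, TNFRSF10B-AS1 and EGR1 are ringed off it.

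The test of the difference between the sets' changes called 3 genes (0.0152%), and 1270 genes (6.42%) had an unadjusted p under 0.05. PIM2, a serine/threonine kinase that promotes survival of blood cells, read 112 with vehicle and 409 with AS605240 in HPB-ALL and 155 and 483 in ALL-SIL. It read 47.3 and 70.2 in CCRF-CEM, 162 and 154 in Jurkat, and 55.2 and 62.5 in Molt-4. The changes were 1.73 and 1.55 in TLX-type lines against 0.45, -0.07 and 0.14, a difference of 1.47 (SE 0.17, adjusted p = 0.0182). It was 1.04 in P12-ICHIKAWA and 0.78 in TALL-1, between the sets.

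LOC286437, an uncharacterized locus, read 30.9 and 169 in HPB-ALL and 24.6 and 111 in ALL-SIL, against 22.5 to 31.2 on all TAL1-type arrays. Its changes were 1.98 and 1.64 against 0.26, -0.02 and -0.29 (difference 1.83, SE 0.19, adjusted p = 0.00801). TNFRSF10B-AS1, an antisense RNA at a death receptor gene, read 25.4 and 0.00243 in HPB-ALL and 24.6 and 0.000748 in ALL-SIL, against 4.98 to 18.7 (difference -1.37, SE 0.14, adjusted p = 0.00801). This signal was dim on every array, and the other probe set of TNFRSF10B-AS1 gave a difference of 0.18. In P12-ICHIKAWA and TALL-1, LOC286437 changed by 0.565 and 0.108, and TNFRSF10B-AS1 by 0.212 and -0.0235. PIM2 and LOC286437 each had a single probe set. Adjusted p without HPB-ALL was 0.18 for PIM2, 0.0882 for LOC286437 and 0.0784 for TNFRSF10B-AS1, and without Jurkat it was 0.12, 0.0784 and 0.0784. PIM2 also missed the call without ALL-SIL (0.0515) and without Molt-4 (0.128), while its difference stayed between 1.27 and 1.6 over all settings.

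Genes next in order were not called. EGR1, an immediate early transcription factor, read 65.8 and 34.5 in HPB-ALL and 188 and 52.4 in ALL-SIL, but 16 and 17 in CCRF-CEM, 56.5 and 77.6 in Jurkat, and 14.5 and 24.7 in Molt-4. Its changes were -0.70 and -1.57 against 0.04, 0.37 and 0.42 (difference -1.41, adjusted p = 0.197), and in P12-ICHIKAWA and TALL-1 it changed by 1.21 and 1.96. The RNA-binding protein gene MATR3 changed by -0.925 and -1.04 against 0.15, -0.20 and 0.07 (adjusted p = 0.197). ITGA6, an integrin subunit, changed by 0.51 and 0.75 against -0.17, -0.10 and -0.13 (adjusted p = 0.44). EEPD1 changed by 0.84 and 1.23 against 0.10, 0.26 and -0.01, where the baseline of ALL-SIL was low (18.6). RGS1, a regulator of G protein signalling called higher in TLX-type lines, rested mainly on HPB-ALL, with changes of 2.61 and 0.97 against 0.40, -0.06 and 0.39. Apart from EGR1, the genes named so far in this paragraph changed in P12-ICHIKAWA and TALL-1 in the direction of the TLX-type lines. The changes there were -0.529 and -0.35 for MATR3 and 0.464 and 0.422 for ITGA6. For EEPD1 they were 1.13 and 1.06, and for RGS1 2.12 and 2.06. Others next in order, also not called, went both ways. PDK2 changed by 0.876 and 0.735 in P12-ICHIKAWA and TALL-1, against -0.0014 and -0.193 in HPB-ALL and ALL-SIL. MIF-AS1 changed there by -1.01 and -0.549, against 0.698 and 0.764. GAPDHS and MMP11 rose there and fell in the TLX-type lines, while SH3BP5 and CASP4LP rose in both.

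The ATF4 and amino acid genes gave the widest gap between the sets' list medians, 0.08 in TLX-type and -0.31 in TAL1-type lines, and CCRF-CEM was the one line far from 0. The median change was 0.155 in HPB-ALL, 0.0469 in ALL-SIL, -0.889 in CCRF-CEM, 0.0264 in Jurkat and 0.0674 in Molt-4. ASNS changed by -1.56 in CCRF-CEM, 0.28 in Jurkat and -0.03 in Molt-4, beside 0.14 and -0.21 in the TLX-type lines. With all 5 lines, 9 of 27 members had an unadjusted p for the difference under 0.05 and 0 were called for it, while ATF5 and SLC7A5 were called lower in the TAL1-type lines. Without CCRF-CEM, a setting chosen after seeing the data, 1 member (ATF5) did and the TAL1-type median was 0.00733.

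**Figure D5:**
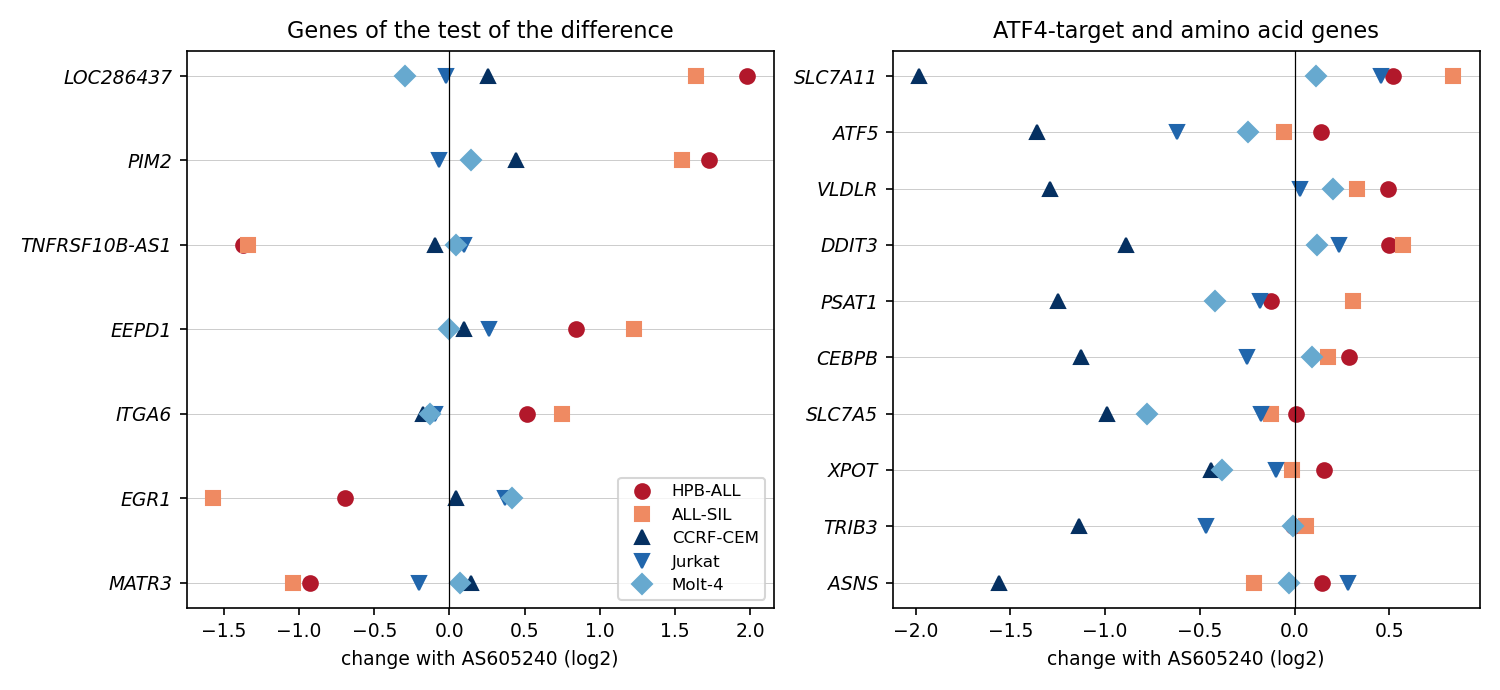
Log2 change with AS605240 in each of the 5 lines, 1 point per line. Left, the 3 genes called for the difference between sets (LOC286437, PIM2, TNFRSF10B-AS1) and 4 that were not. In each, HPB-ALL and ALL-SIL lie on the same side of the TAL1-type lines, but for EGR1 they lie apart (-0.696 and -1.57). Right, the 9 ATF4-target and amino acid genes with an unadjusted p under 0.05 and ASNS; CCRF-CEM has the lowest change in each, while Jurkat and Molt-4 lie near the TLX-type lines in most.

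Of 19 cortical thymocyte genes, 3 were called higher in the TAL1-type lines under the inhibitor, RAG1, DNTT and PTCRA, and 0 in TLX-type lines. Over all genes, 1.23% and 0.829% were called higher. DNTT, the template-free polymerase of receptor rearrangement, changed by 0.54 in HPB-ALL and 0.44 in ALL-SIL, and by 0.36, 1.28 and 0.93 in CCRF-CEM, Jurkat and Molt-4. PTCRA, the pre-T-cell receptor alpha chain, changed by 0.04 and 0.14 against 0.62, 0.47 and 0.98. None of the 3 was called for the difference itself. TXK, a kinase of T-cell receptor signalling, was called higher in TLX-type lines, with changes of 0.86 and 1.53 against 0.11, 0.44 and 0.28. It was not called for the difference either, and it changed by 1.14 in P12-ICHIKAWA and 1.04 in TALL-1.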

How the data were processed

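The deposited table held 1 intensity per probe set and array on a linear scale, which the authors made from HG-U133 Plus 2.0 arrays. Per the submitters' processing notes, Affymetrix Expression Console 1.3.1.187 and PLIER were used; the study's methods name iterPLIER with an added 16, log2 values and a paired limma analysis at an adjusted p of 0.05 and 1.5-fold. How arrays were normalized to each other is not stated in the methods, labels or file header.

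All 14 columns matched a sample by its labels, and 0 columns stayed unused. Of 54675 probe sets, 41091 carried 1 gene, 1801 several and 11721 no name, and 62 were controls. Symbols were updated through the gene identifier for 41037. To each value 16 was added and log2 taken. For each gene the single-gene probe set with the highest mean over all 14 arrays was kept. limma 3.58.1 (R 4.3.3) compared line means, 2 lines against 3, and then each line's change with AS605240, for each set against 0 and between the sets, with the spread shared over the 5 lines and Benjamini-Hochberg adjustment over all genes. Taking each line's own change pairs its arrays. The scripts were tested on simulated data. The number of arrays, 1 per line and treatment, limits the precision, and the spread is that between lines.

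Named genes were the label genes, up to 12 called baseline genes each way with arrays apart, the called genes of the response tests or those with the smallest p, and called list members. Other genes were chosen after their values were seen. The sets and gene lists were chosen with earlier results of these data known. Alternatives covered the added constant, normalization, probe set choice, a filter on dim genes, the variance model, single treatments, the pairing and leaving out each line. 45 listed genes had no single-gene probe set and are not analysed here.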

Additional observations from a re-analysis of the deposited data

Results flagged for a closer look

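In the comparison of responses, 3 genes changed differently in TLX-type and TAL1-type lines by the limma test of the difference itself. The change of LOC286437 was higher by 1.83 in the TLX-type lines, and 2 of 2 TLX-type lines lay above 3 of 3 TAL1-type lines. The change of PIM2 was higher by 1.47, again with all 5 lines apart. The change of TNFRSF10B-AS1 differed by -1.37, in a gene never above 25.4 on any of the 10 arrays. Over the other settings run for each, the call was lost in 6 of 12 for LOC286437, 9 of 13 for PIM2 and 5 of 12 for TNFRSF10B-AS1. The sign held in all of these. LOC286437 and TNFRSF10B-AS1 did not pass the filter on dim genes, so that setting is not among theirs. PIM2 passed it and kept its call there (limma adjusted p = 0.00864).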

How the results depend on the processing

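Counts are given as baseline higher and lower, TLX-type response higher and lower, TAL1-type response higher and lower, and difference in response, which were 6 and 26, 164 and 97, 243 and 103, and 3. An added constant of 4 gave 12 and 53, 0 and 1, 0 and 0, and 1, and one of 64 gave 0 and 2, 0 and 0, 63 and 33, and 0. Averaging the probe sets of a gene gave 3 and 13, 28 and 31, 122 and 56, and 0. Quantile normalization gave 15 lower at baseline, and 71 higher and 132 lower in the TLX-type response, which turned the balance of directions. Leaving out dim genes gave 10 and 45 at baseline and 1 difference. A trended, robust variance gave 10 and 40 at baseline and 4 and 3 in the TLX-type response. Adding the lines left out as a set of their own gave 103 and 235 at baseline. Those 2 lines are close to 1 line (r = 0.996) and enter the shared spread as if independent. The higher counts are therefore not read as a stronger difference. Without the replicate block that pairs each line's arrays, each response count and the difference were 0. Median centring, and vehicle or AS605240 arrays alone, kept the counts within 1.5-fold.

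Leaving out 1 line at a time gave 0 to 41 higher and 0 to 17 lower at baseline, 13 to 154 and 14 to 91 in the TLX-type response, 110 to 330 and 43 to 158 in the TAL1-type response, and 1 to 18 differences. Without HPB-ALL there were 24 and 17 at baseline and 8 differences, and without ALL-SIL 41 and 16 and 18 differences; the lone TLX-type line is then assumed to vary like the others. The 18 plotted baseline genes and the genes called for the difference in response kept their sign in all settings run for them. Other named genes were not followed over all settings. The ASNS difference in change was 0.401 with all compared lines and -0.162 without CCRF-CEM. Baseline calls of the 18 plotted genes were lost in 3 (PTPRK, MYADM) to 8 (PSAT1, ACAA2, SCML2) of the alternatives. The causes were not tested. Signals under about 16 have no order.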

Other observations

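In 5 genes the mean change of a set exceeded 2 on the log2 scale, and in each a single line made it, with none called. DPP6, a membrane protein of potassium channel complexes, went from 13.4 to 4340 in HPB-ALL and stayed between 6.87 and 17.7 in the other 4 lines. ASB2, an ubiquitin ligase subunit, went from 11.4 to 1290 and DMGDH, a mitochondrial enzyme of choline breakdown, from 7.86 to 552 in the same line. PTPN13, a tyrosine phosphatase, fell from 1620 to 89.1 in ALL-SIL. SFRP5, a secreted Wnt inhibitor, went from 3.5 to 2690 in Molt-4. Each rests on 1 array per treatment and was not tested further.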
